A study of Mus musculus with 36 samples.

Results

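The 7 tumour sub-clones of this co-culture study fell, by the fibroblast RNA measured after contact with them, into clones H, V and T on one side and clones E, K, M and N on the other. The division was chosen by these same expression values, as the strongest of the 35 ways to divide 7 clones into 3 and 4. It covers 28 of the 36 libraries: 12 fibroblast libraries from co-cultures with H, V and T and 16 from co-cultures with E, K, M and N. The difference between these sides is therefore given as a description, without a test. The comparison of KPC1 co-culture with mono-culture, 4 libraries each, took no part in the choice and is tested.

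The fibroblasts were mouse pancreatic fibroblasts of the C57BL/6 strain, sequenced as 4 libraries for each of 9 conditions. In the clonal groups they had shared a dish for 48 h with clone H, V, T, E, K, M or N, and in another group with KPC1, a tumour line whose name the labels do not explain. In the remaining group, mono-culture, they were grown without tumour cells. Tumour cells carried GFP and were sorted away before RNA extraction. No drug or genetic change of the fibroblasts is named, and each letter stands for a single clone, so clone and any trait of its kind cannot be told apart. The labels do not say whether the 4 libraries of a group came from separate cultures, so p-values measure the spread between libraries, which may be technical. By the numbers in the sample titles, the co-cultures run in rounds by replicate and the mono-culture libraries come last. What that order stands for is not stated. Any effect of it cannot be told apart from co-culture when KPC1 is compared with mono-culture.

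Cells short of amino acids, or with stress in the endoplasmic reticulum or mitochondria, slow general translation and raise the transcription factor ATF4. ATF4 and its partners of the C/EBP family then switch on genes for amino acid synthesis, amino acid import and tRNA charging, a programme called the integrated stress response. Fibroblasts of resting connective tissue are known for other genes, among them small matrix proteoglycans such as Ogn, Omd and Prelp, complement components and the growth factor receptor Pdgfra.

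Library totals ran from 12532122 to 21985538 counts (median 18001907, n = 36). Levels are given as CPM, counts scaled to library size after TMM normalisation, and differences are on a log2 scale with the standard error of the edgeR fit. For differences between the sides that error holds the spread of libraries within clones and leaves out the spread between clones. It therefore does not measure how precisely the sides differ as sets of clones. Defining fibroblast genes (Col1a1, Col1a2, Dcn, Pdgfra, Thy1, Vim and others) summed to between 9434 and 24480 CPM over all libraries. Of them Lum was low throughout, at 0.330 to 1.99 CPM with H, V and T and 1.76 to 12.4 CPM with E, K, M and N. Summed immune genes stayed at 1.44 to 16.3 CPM and summed endothelial genes at 1.68 to 5.66 CPM in the 28 clonal libraries.

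Of 14439 genes tested, few kept the libraries of the sides apart. In 162 genes (1.12%) all 12 libraries of H, V and T lay above all 16 of E, K, M and N, and in 169 (1.17%) they lay below. Genes that were separated in this way and also differed at least 2-fold are called split genes here. There were 30 higher split genes (0.208% of the genes tested) and 82 lower ones (0.568%). Just inside the limit stood Smpd3 with a log2 difference of 1.01 and AI429214 with -1.01. Just outside stood Gm12141 with 0.99 and Arhgef19 with -0.99. Without clone T replicate 1 the higher split genes numbered 62, without clone T replicate 4 they numbered 54, and without clone N replicate 4 the lower ones numbered 131.

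A split score, the mean log2 CPM of the 30 higher genes minus that of the 82 lower genes, sums this up for each library. It ran from 2.82 to 5.11 with H, V and T and from 0.12 to 1.74 with E, K, M and N, a gap that the choice of genes fixes. Within the first side clone T was lowest, at 3.21 ± 0.49 (SD, n = 4), against 3.97 ± 0.61 for H and 4.36 ± 0.70 for V. Within the second, M (0.35 ± 0.29) and K (0.56 ± 0.30) were lowest and E (1.31 ± 0.34) and N (1.35 ± 0.37) highest, and neither M and K nor E and N differed beyond their spread. The libraries that had no part in the choice fell on separate sides: mono-culture scored 0.54 to 1.01 and KPC1 3.50 to 4.86.

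**Figure D1:**
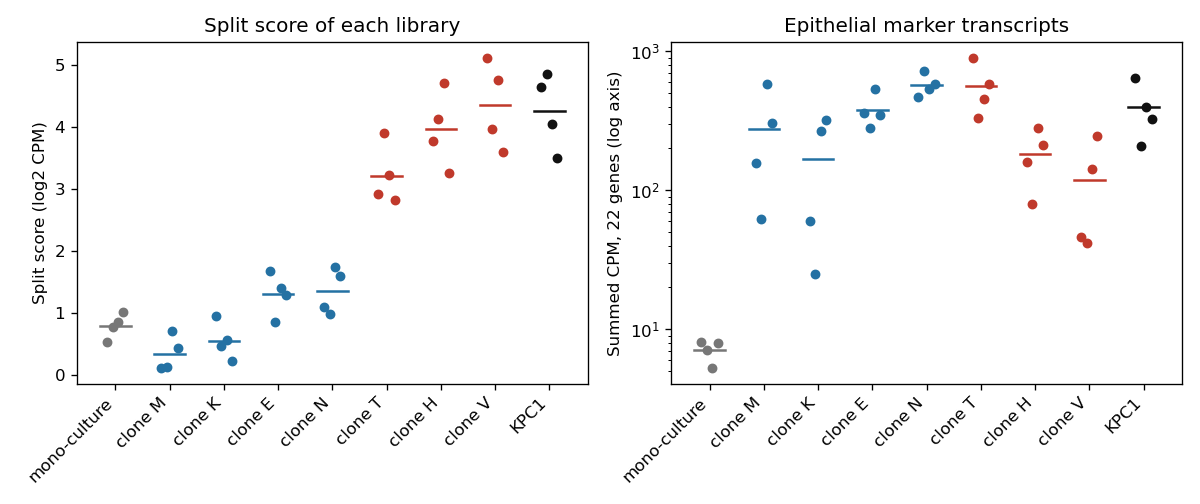
Left, split score of each library (log2 CPM, 30 higher genes minus 82 lower genes); right, summed CPM of 22 epithelial genes on a log axis. Points are libraries, short lines are means of 4; red marks H, V and T, blue E, K, M and N, grey mono-culture and black KPC1. KPC1 (3.50 to 4.86) sits with H, V and T in score and mono-culture (0.54 to 1.01) with E, K, M and N, while the epithelial sums of both sides overlap.

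The question that unused libraries can answer is whether the same genes move when fibroblasts meet another tumour line. In KPC1 co-culture against mono-culture, 8526 of 14439 genes (59%) passed the test, 4410 higher (30.5%) and 4116 lower (28.5%). Of the 30 split genes higher with H, V and T, 30 were called higher with KPC1 and 0 lower. In 29 of them all 4 KPC1 libraries lay above all 4 mono-culture libraries, a pattern seen in 27.4% of the genes tested. Of the 82 lower split genes 76 were called lower with KPC1 and 0 higher, and in 73 all KPC1 libraries lay below all mono-culture libraries, against 26.2% of the genes tested. The median KPC1 difference was 1.46 for the higher genes and -1.83 for the lower ones, beside 0.01 over all genes tested. A looser definition gives exceptions. Among all 1078 genes at least 2-fold lower with H, V and T, overlap of libraries allowed (7.47% of the genes tested), 725 were called lower with KPC1 and 61 higher. Among the 356 at least 2-fold higher (2.47%), 283 were called higher and 3 lower.

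**Figure D2:**
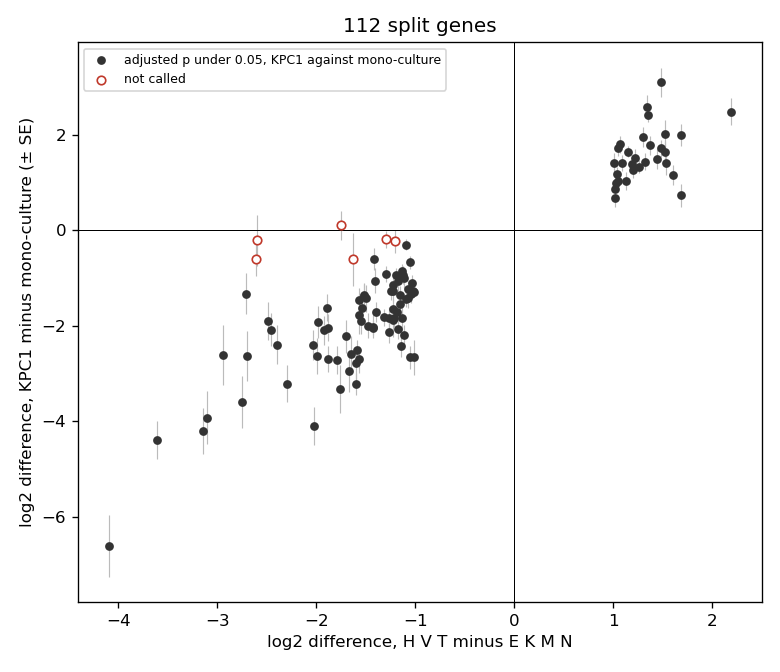
The 112 split genes, with the log2 difference of H, V and T minus E, K, M and N on the horizontal axis and of KPC1 minus mono-culture on the vertical axis; vertical bars are standard errors. Filled points passed the edgeR test between KPC1 and mono-culture and open points did not; the 30 higher genes lie in the upper right and 81 of the 82 lower genes in the lower left.

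The 6 lower split genes not called with KPC1 were Nod1, Sec1, Acaa1b, Cacna1g, Dlx4 and Glrx, named after their values were seen. Cacna1g, a subunit of T-type calcium channels, had 4.59, 10.7 and 17.7 CPM (lowest, median, highest) with H, V and T and 25.7, 34.5 and 53.3 CPM with E, K, M and N. Mono-culture had 4.62 to 11 CPM and KPC1 6.22 to 10.1 CPM. Here the E, K, M and N co-cultures stood above all other conditions, and KPC1 and mono-culture overlapped (log2 difference 0.11 ± 0.30, edgeR adjusted p = 0.779). Acaa1b, a peroxisomal thiolase, had the same layout at low level, with 1.40 to 6.13 CPM with E, K, M and N, 0.110 to 1.33 CPM with H, V and T, 0.411 to 0.826 CPM in mono-culture and 0.241 to 0.863 CPM with KPC1.

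Set on a scale where the mean of E, K, M and N is 0% and that of H, V and T 100%, mono-culture stood at a median of -8.76% over the higher split genes and -11.2% over the lower ones. KPC1 stood at 112% and 111%. Mono-culture was nearer to E, K, M and N in 30 of the 30 higher and 75 of the 82 lower genes, and KPC1 was nearer to H, V and T in 30 and 81. In 8 of the lower genes all 4 mono-culture libraries lay on the H, V and T side of the 16 libraries. In 17 of the higher and 46 of the lower split genes all 4 mono-culture libraries lay inside the range of the 16 E, K, M and N libraries. In 30 of the higher and 74 of the lower split genes all 4 KPC1 libraries lay beyond that range on the side of H, V and T.

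Among the higher genes, promoters were searched for TGATGNAA on both strands, the composite element that ATF4 and C/EBP proteins share, since 4 split genes (Gdf15, Trib3, Ppp1r15a and Asns) belonged to the list of 18 integrated stress response genes. RefSeq promoters (GRCm38.p6, 250 bases before to 50 after the start) were matched for 24 of the 30 higher split genes. The letters occurred in 5 of these 24 (20.8%), in 7 of 17 matched stress response genes (41.2%) and in 4.51% of all 27025 promoters. Asns and Trib3 were among these 5 and also among the 4 genes that prompted the search. In other lists the letters occurred in 5 of 13 matched aminoacyl-tRNA synthetases, 2 of 9 amino acid transporters and 0 of 11 serine and one-carbon enzymes. For the interferon response and the sterol and fatty acid synthesis lists it was 1 of 19 and 1 of 16. Over the genes tested with a matched promoter the share was 2.77%, but with 73.3% of them matched this last value is incomplete. Of the 82 lower split genes 55 (67.1%) were matched, also an incomplete share, and the letters occurred in 1 of these (1.82%). Windows before the start are printed for Asns, Got1 and Gtpbp4, split genes, and for Atf3, Chac1 and Nupr1, stress response genes outside the split genes, with the element in capitals in either orientation.
Asns: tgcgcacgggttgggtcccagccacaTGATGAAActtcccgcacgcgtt
Got1: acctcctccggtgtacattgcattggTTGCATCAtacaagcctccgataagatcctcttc
Gtpbp4: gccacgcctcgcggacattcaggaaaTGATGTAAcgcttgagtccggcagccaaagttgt
Atf3: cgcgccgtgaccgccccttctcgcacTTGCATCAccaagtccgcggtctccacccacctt
Chac1: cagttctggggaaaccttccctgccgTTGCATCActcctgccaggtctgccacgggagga
Nupr1: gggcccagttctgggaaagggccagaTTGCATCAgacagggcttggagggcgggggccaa

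In GRCm38 these windows lie at chr6:7693210-7693258 (Asns, minus strand), chr19:43524674-43524733 (Got1, minus strand), chr13:8996088-8996147 (Gtpbp4, minus strand), chr1:191183410-191183469 (Atf3, minus strand), chr2:119351023-119351082 (Chac1, plus strand) and chr7:126625547-126625606 (Nupr1, minus strand). The other two of the 5 split genes with the element were Trib3, where it begins 15 bases after the start, and Arl14ep. Counted from the start, the element begins at -23 in Asns and between -102 and -193 in the other 5 printed windows. A match of letters is a description and no evidence of binding. The cyclic AMP response element TGACGTCA was found in 3 of the 24 matched higher split genes (12.5%), in 2.03% of all promoters and in 3.49% of those of genes tested. The interferon-stimulated response element (ISRE) was found in the same number, 3 of 24 (12.5%), and in 3.99% of all promoters, and the AP-1 element TGANTCA in 1 of 24 (4.17%) and in 8.97%. Over the genes tested, with the same incomplete matching, the ISRE share was 3.76% and the AP-1 share 6.41%. Of the 55 matched lower split genes 0 held TGACGTCA, 0 the ISRE and 5 (9.09%) the AP-1 element.

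Gdf15, a secreted stress cytokine of the TGF-beta superfamily (chr8:70629393-70632456, minus strand), had the widest difference of the higher split genes. Its level with H, V and T was 67.5, 131 and 207 CPM (lowest, median, highest), and with E, K, M and N 17.1, 26.2 and 48.8 CPM. Mono-culture had 15.6, 23.1, 26 and 29.1 CPM, and KPC1 had 110, 120, 140 and 153 CPM. All KPC1 libraries were thus inside the range of H, V and T, and 1 mono-culture library was below, and 3 were inside, the range of E, K, M and N. The log2 difference between the sides was 2.19 ± 0.15, and that between KPC1 and mono-culture 2.48 ± 0.28 (edgeR adjusted p = 2.07e-08).

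Asns makes asparagine from aspartate and glutamine (chr6:7675169-7693254, minus strand). With H, V and T it had 316, 487 and 671 CPM, and with E, K, M and N 86.9, 166 and 294 CPM. The mono-culture mean was 173 CPM and the KPC1 mean 544 CPM, with a log2 difference of 1.65 ± 0.23 (edgeR adjusted p = 3.87e-07). Clone N (mean 252 CPM) and clone E (200 CPM) were the highest of their side and clone M (95.1 CPM) the lowest. Trib3, a pseudokinase that restrains ATF4, had 112 to 191 CPM with H, V and T, 18.1 to 96.0 CPM with E, K, M and N, 54.8 to 83.6 CPM in mono-culture and 130 to 271 CPM with KPC1. Ppp1r15a, which restarts translation by directing dephosphorylation of eIF2alpha, had 87.3 to 300 CPM against 33.4 to 77.0 CPM, with 30.7 to 47.7 CPM in mono-culture and 108 to 246 CPM with KPC1.

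Enzymes of nitrogen transfer lay beside them. Gpt2, the mitochondrial alanine aminotransferase, had 122 to 342 CPM with H, V and T and 47.0 to 120 CPM with E, K, M and N. Its KPC1 difference was 1.15 ± 0.21 (edgeR adjusted p = 2.46e-05). Got1, the cytosolic aspartate aminotransferase, had 91.9 to 185 CPM against 36.5 to 79.9 CPM and a KPC1 difference of 1.43 ± 0.18 (edgeR adjusted p = 4.68e-08). Recql4, a DNA helicase, had 51.5 to 155 CPM against 20.3 to 40.5 CPM, and its exons overlap those of Mfsd3 on the other strand. Acot2, a mitochondrial acyl-CoA thioesterase, had 39.2 to 94.8 CPM against 11.3 to 36.4 CPM, but mono-culture (27.9 to 43.2 CPM) reached the range of H, V and T and the KPC1 difference was 0.73 ± 0.23 (edgeR adjusted p = 0.00814).

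Of the other higher split genes named by size or by the width of the gap, Steap1, a metalloreductase, had 41.2 to 98.7 CPM with H, V and T against 13.4 to 40.7 CPM. Pvr, a cell adhesion receptor of the nectin family, had 41.5 to 103 CPM against 14.0 to 41.1 CPM. The tRNA methyltransferase Trmt10a had 37.5 to 67.9 CPM against 7.76 to 32 CPM and was at 8.31 to 10.1 CPM in mono-culture and 46.0 to 54.3 CPM with KPC1 (log2 difference 2.42 ± 0.16, edgeR adjusted p = 1.11e-12). Gm11974 had 8.08 to 18.4 CPM against 2.22 to 6.69 CPM. With KPC1 Gm11974 reached 12.7 to 34.2 CPM, from 1.82 to 2.88 CPM in mono-culture.

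**Figure D3:**
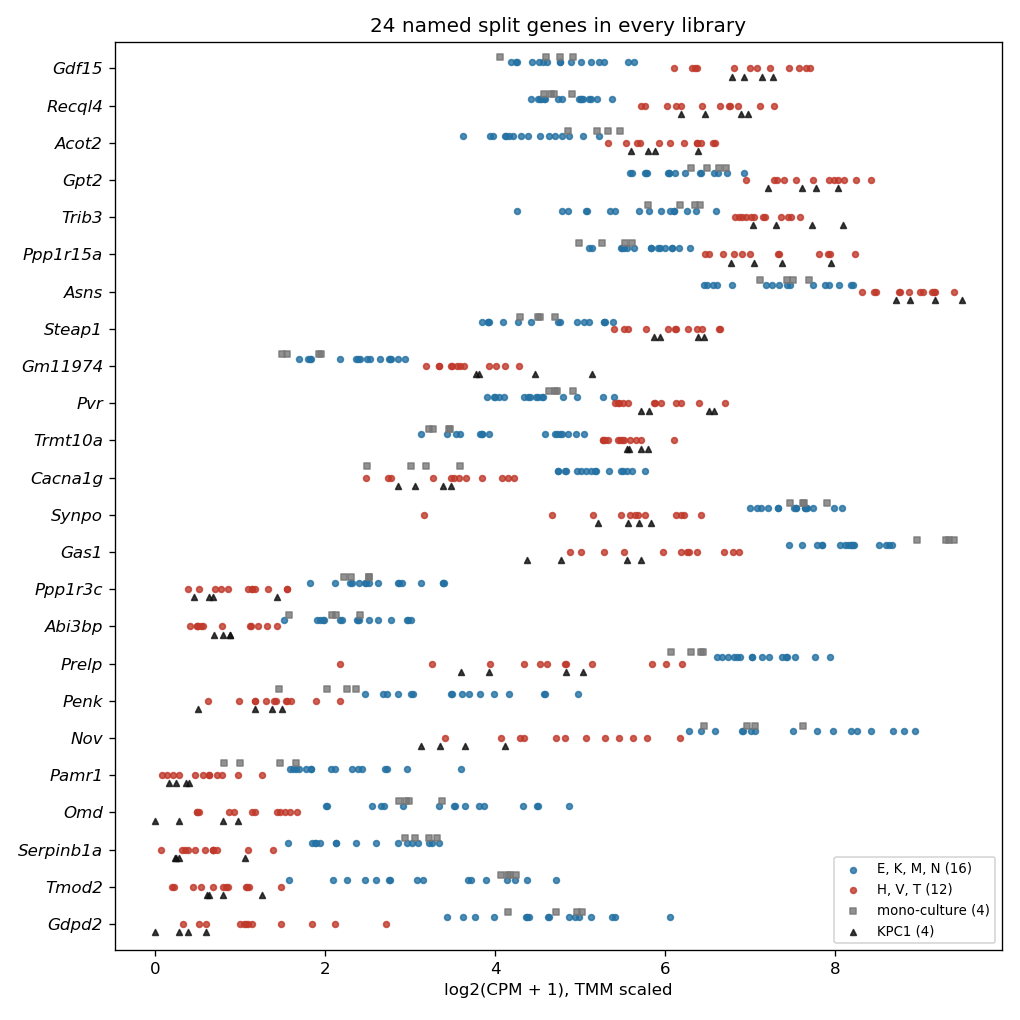
Level of the 24 named split genes in all 36 libraries, as log2(CPM + 1); blue points are the 16 libraries with E, K, M and N, red the 12 with H, V and T, grey squares mono-culture and black triangles KPC1. The sides do not overlap by the rule that chose the genes; all KPC1 libraries lie beyond the E, K, M and N libraries on the side of H, V and T, and for Cacna1g, Penk and Prelp the mono-culture libraries do too.

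The wider lists put these genes in their pathway. Over all genes tested the median difference between the sides was -0.02, and 48.5% of genes were higher with H, V and T. KPC1 called 30.5% of all genes tested higher and 28.5% lower against mono-culture, the shares to set beside each list count below. Of the 18 integrated stress response genes, 17 were higher and 10 at least 2-fold higher, with a median of 1.17. Against mono-culture, KPC1 called 16 of them higher and 1 lower, with a median of 1.31. The transcription factor Atf4 itself had 686 to 1095 CPM with H, V and T and 309 to 667 CPM with E, K, M and N, and its targets Ddit3, a pro-apoptotic factor, and Chac1, a glutathione-degrading enzyme, differed by 1.57 ± 0.11 and 1.59 ± 0.15. The 1 member that ran the other way in both comparisons was Atf5, at -0.87 ± 0.13 between the sides and -2.26 ± 0.24 with KPC1 (edgeR adjusted p = 4.45e-09); its exons overlap those of 2 genes on the other strand, Il4i1 and Nup62.

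All 20 aminoacyl-tRNA synthetases, which charge tRNAs with amino acids, had a positive difference (median 0.86), and 4 were at least 2-fold higher. KPC1 called 15 of the 20 higher and 0 lower against mono-culture. Nars, the asparaginyl-tRNA synthetase, had the largest difference at 1.09 ± 0.10, with 476 to 1260 CPM against 242 to 511 CPM. Of 14 serine and one-carbon enzymes 12 were higher with H, V and T (median 0.78), and KPC1 called 11 higher and 0 lower. Cth, which makes cysteine from cystathionine, led them at 2.12 ± 0.19 and had a KPC1 difference of 1.97 ± 0.35 (edgeR adjusted p = 2.27e-05). Cbs, the enzyme just before it in that pathway, differed by -1.06. Of 14 amino acid transporters 11 were higher (median 0.92) and KPC1 called 8 higher and 0 lower. Slc3a2, the shared heavy chain of several of these transporters, was a split gene with 369 to 627 CPM against 165 to 342 CPM, and its cystine partner Slc7a11 differed by 1.30 ± 0.21 with overlapping ranges (49.4 to 185 CPM against 12.1 to 146 CPM).

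Per library, the median stress response gene stood 0.62 to 1.58 above its mono-culture mean with H, V and T, and -0.63 to 0.42 from it with E, K, M and N (log2 scale). KPC1 stood 0.84 to 1.82 above. Clone T, at 0.62 to 0.98, was below clone V, at 1.07 to 1.58, and clone M, at -0.63 to -0.25, was below mono-culture, at -0.24 to 0.11. For the tRNA synthetases the sides overlapped slightly, at 0.38 to 1.17 and -0.43 to 0.42.

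**Figure D4:**
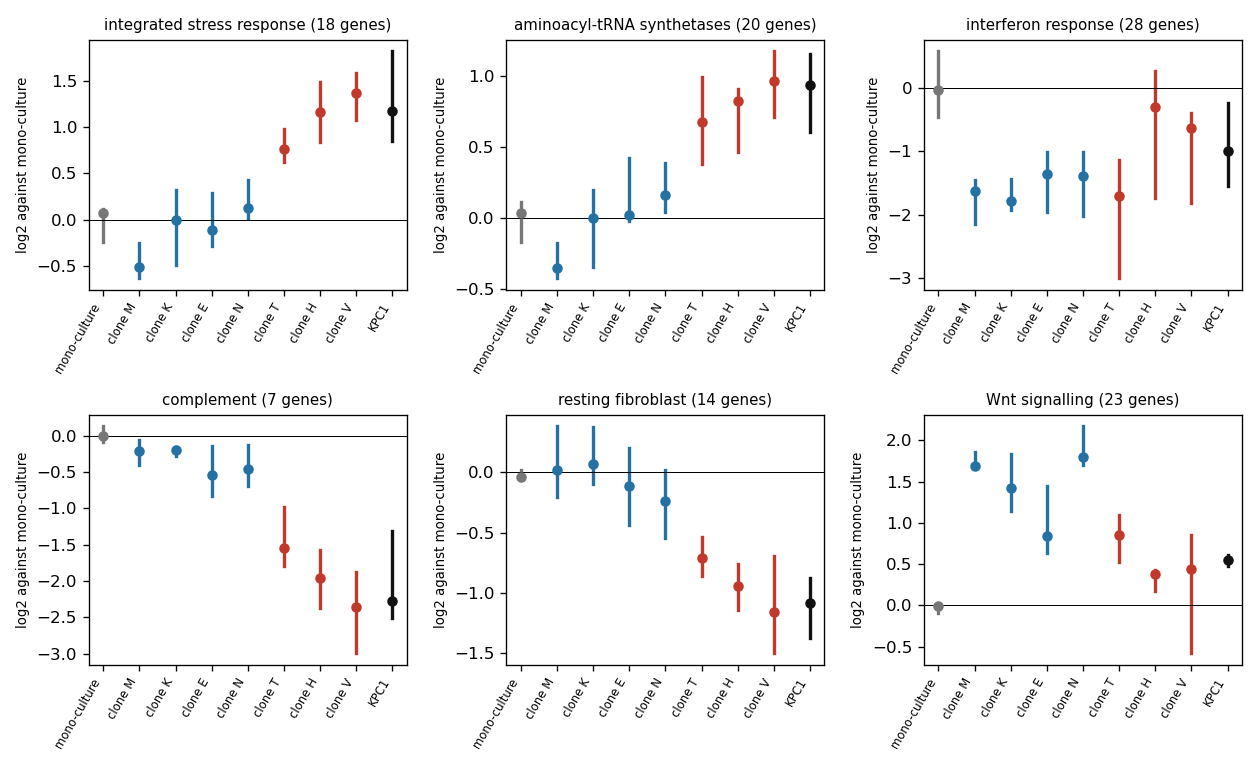
For 6 lists, the median over the list of each library's log2 level minus the mono-culture mean; bars span the 4 libraries of a condition and points mark their median. The stress response and tRNA synthetase lists are above 0 in H, V, T and KPC1, around 0 in E and K and below 0 in M. In N they are slightly above 0 (0.02 to 0.42 and 0.04 to 0.39). Complement genes are below 0 in all co-cultures and furthest below in H, V, T and KPC1. Resting fibroblast genes are below 0 in H, V, T and KPC1 and nearer 0 in E, K, M and N. The interferon and Wnt lists order the conditions differently.

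The lower split genes outnumbered the higher ones, 82 to 30, and were of lower level, with a median of 13.5 CPM over the 28 clonal libraries against 65.0 CPM for the higher genes and 24.4 CPM for all genes tested. Exon length was alike, with medians of 3930 and 3929 bases against 4210 for all genes tested. Gdpd2, a glycerophosphodiester phosphodiesterase on chromosome X (its exons overlap Gm14866 on the other strand), had the widest difference. It had 0.258, 1.12 and 5.59 CPM (lowest, median, highest) with H, V and T and 9.77, 23.8 and 65.2 CPM with E, K, M and N. Mono-culture had 16.7 to 31.5 CPM and KPC1 0 to 0.513 CPM. The log2 difference was -4.09 ± 0.28 between the sides and -6.61 ± 0.64 with KPC1 (edgeR adjusted p = 1.18e-09).

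Several named lower genes encode extracellular proteins, a share that was not compared with that over all genes tested. Nov (CCN3), a matricellular protein, had 9.60, 29.9 and 71.0 CPM with H, V and T and 76.9, 200 and 488 CPM with E, K, M and N. Its mono-culture level was 86.4 to 195 CPM and its KPC1 level 7.75 to 16.3 CPM, a log2 difference of -3.59 ± 0.54 (edgeR adjusted p = 2.16e-06). Prelp, a leucine-rich proteoglycan, had 3.51 to 72.2 CPM against 96.1 to 244 CPM. Mono-culture held Prelp at 66.1 to 85.7 CPM, below all libraries with E, K, M and N, and KPC1 at 11.1 to 31.7 CPM (log2 difference -1.90 ± 0.39, edgeR adjusted p = 0.000133). Its relative Omd, the matrix protein Abi3bp and the secreted Pamr1 had 0.407 to 2.19, 0.327 to 1.69 and 0.0599 to 1.38 CPM with H, V and T. With E, K, M and N they had 3.02 to 28.2, 1.87 to 7.07 and 2.01 to 11.1 CPM.

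Gas1, a membrane co-receptor for hedgehog ligands that is known from growth-arrested fibroblasts, had 28.4, 73.7 and 115 CPM with H, V and T and 174, 286 and 404 CPM with E, K, M and N. Mono-culture was higher still, at 498 to 672 CPM, and KPC1 had 19.7 to 51.5 CPM (log2 difference -4.09 ± 0.39, edgeR adjusted p = 1.08e-09). Gas1 is thus one of 5 lower split genes in which mono-culture lay beyond all 16 libraries of E, K, M and N. Synpo, an actin-associated protein, had 7.94 to 84.8 CPM against 127 to 270 CPM, and Tmod2, which caps actin filaments, 0.153 to 1.80 CPM against 1.98 to 25.2 CPM. Serpinb1a, a protease inhibitor, had 0.0509 to 1.61 CPM against 1.95 to 9.10 CPM. Penk, the precursor of enkephalins, and Ppp1r3c, a glycogen-targeting phosphatase subunit, had 0.545 to 3.53 and 0.310 to 1.94 CPM against 4.55 to 30.4 and 2.54 to 9.49 CPM. Of these 5 genes Penk had the smallest KPC1 difference, -1.32 ± 0.44 (edgeR adjusted p = 0.0102), and its mono-culture level, 1.75 to 4.13 CPM, overlapped the range of H, V and T.

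Pdgfra, the receptor used to mark these cells, was itself a lower split gene, with 40.6, 130 and 167 CPM against 176, 280 and 374 CPM. It had 270 to 353 CPM in mono-culture and 105 to 111 CPM with KPC1 (log2 difference -1.54 ± 0.22, edgeR adjusted p = 5.58e-07). Of the 10 fibroblast marker genes 7 were lower with H, V and T, and their sum was 9434 to 16485 CPM there and 13631 to 24480 CPM with E, K, M and N. In sorted bulk cells fewer cells of a type and less RNA per cell cannot be told apart. The part of this in the lower split genes was not tested. Among abundant split genes outside the naming rule, the heparin-binding growth factor Ptn had 238 to 739 CPM against 766 to 1527 CPM, and the lysyl oxidase Loxl1 106 to 278 CPM against 353 to 571 CPM. Homeobox genes also occurred, chosen here after their values were seen: Hoxa2 had 1.75 to 5.39 CPM against 6.62 to 16.1 CPM, and its neighbour Hoxa3 11.5 to 22.7 CPM against 23.5 to 43.5 CPM.

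Of 7 complement genes tested 6 were at least 2-fold lower with H, V and T (median -1.70), and KPC1 called 6 lower and 0 higher. Serping1, the C1 inhibitor, differed by -2.02 ± 0.19, with 0.258 to 1.77 CPM against 1.47 to 6.32 CPM. C3, the central component, had 0.272 to 4.25 CPM with H, V and T, 2.46 to 17.8 CPM with E, K, M and N and a mean of 47.3 CPM in mono-culture. For C3, then, both sides were below mono-culture. Of 14 resting fibroblast genes 13 were lower (median -1.04) and 8 at least 2-fold lower, and KPC1 called 10 lower and 2 higher. Ogn, a small proteoglycan, had 30.8 to 160 CPM against 138 to 515 CPM and a KPC1 difference of -2.18 ± 0.23 (edgeR adjusted p = 3.82e-09). The matrix list as a whole was near 0, with 17 of 28 genes lower (median -0.11). In it elastin (Eln) differed by -2.63 ± 0.26 and Ctgf (CCN2) by 1.04.

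Some lists had a median of another sign between the sides than between KPC1 and mono-culture. The reference differed: co-cultures with E, K, M and N for the sides, and mono-culture for KPC1. The signs alone therefore do not place KPC1 against H, V and T. Of 28 interferon response genes 25 were higher with H, V and T (median 0.56), while KPC1 called 14 lower and 0 higher against mono-culture (median -0.86). Rsad2 (viperin), an antiviral enzyme, had 0.955, 9.18 and 25.7 CPM with H, V and T, 1.27, 2.72 and 5.93 CPM with E, K, M and N and 10.3 to 20.1 CPM in mono-culture. The interferon list stood at -2.14 to -1.01 relative to the mono-culture mean (log2) in the libraries with E, K, M and N, and from -2.999 to 0.27 relative to it in those with H, V and T. The clone T libraries, all at -1.14 or less, lay inside or below the range of E, K, M and N, and the medians of H and V, -0.30 and -0.63, lay above it.

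Of 23 Wnt pathway genes 18 were lower with H, V and T (median -0.87). KPC1 called 8 higher and 5 lower against mono-culture (median 0.72), shares near those over all genes tested (30.5% higher and 28.5% lower). Relative to the mono-culture mean (log2) clone T (median 0.85) stood with E (0.84) on this list. H (0.38) and V (0.45) were lower, and K (1.43), M (1.69) and N (1.80) higher. KPC1, at 0.47 to 0.61 (median 0.55), lay inside the range of H, V and T (-0.58 to 1.09). At 0.63 to 2.17, all libraries with E, K, M and N stood above KPC1. Axin2, a feedback target of Wnt signalling, had 4.93 to 29.5 CPM with H, V and T, 12.3 to 55.2 CPM with E, K, M and N and 0.228 to 1.28 CPM in mono-culture, so both sides were above mono-culture and the second was further from it. Of 13 BMP pathway genes 11 were lower (median -0.55), led by Id4, a target of BMP signals, at -3.16 ± 0.23. Against mono-culture, KPC1 called 3 of the 13 higher and 5 lower (median 0.15), where 30.5% and 28.5% of the genes tested were called. On the same scale clone T (0.85) stood with E (0.79) and N (0.85) for the BMP list. H had -0.18, V -0.80, K 1.79, M 1.24 and KPC1 -0.06. With T, 7 of the 13 were called higher than with H and V and 0 lower (11.6% and 9.88% of the genes tested). Of 15 TGF-beta genes 10 were lower (median -0.33) and KPC1 called 10 higher and 3 lower (median 0.82). For these T had 1.08, H 0.74 and V 0.77. E had 1.01, K 0.90, M 0.69 and N 1.28.

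Of 22 cytokine and chemokine genes 16 were higher with H, V and T (median 0.48) and KPC1 called 17 higher and 1 lower (median 1.61). By clone, this list did not follow the division. Relative to the mono-culture mean (log2) clone T had a median of 0.35, below E (0.54) and N (0.82). H had 0.88, V 0.80, K -0.02 and M 0.01. Cxcl10, an interferon-induced chemokine, led the list at 2.16 ± 0.20, and Cxcl12, a chemokine of resting stroma, was lowest at -1.55 ± 0.21. Of 26 DNA replication and mitosis genes 24 were higher (median 0.35), with Rrm2, a ribonucleotide reductase subunit, at 1.18 ± 0.09. KPC1 called 5 of the 26 higher and 6 lower (median 0.02), where 30.5% and 28.5% of the genes tested were called. Relative to the mono-culture mean (log2) clones T and E both had a median of -0.17. H had 0.14, V 0.23, K -0.31, M -0.30 and N -0.40. With T, 11 of the 26 genes were called lower than with H and V, against 9.88% of the genes tested. Of 26 sterol and fatty acid synthesis genes 17 were lower (median -0.10) and KPC1 called 21 lower and 1 higher (median -0.73). The mitochondrial chaperone Hspd1 had 338 to 626 CPM against 167 to 338 CPM and the cytosolic heat shock gene Hspa1b, a split gene, 13.5 to 34.4 CPM against 41.9 to 74.0 CPM. Hspa1b has a near-identical copy, Hspa1a, so its count is uncertain.

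**Figure D5:**
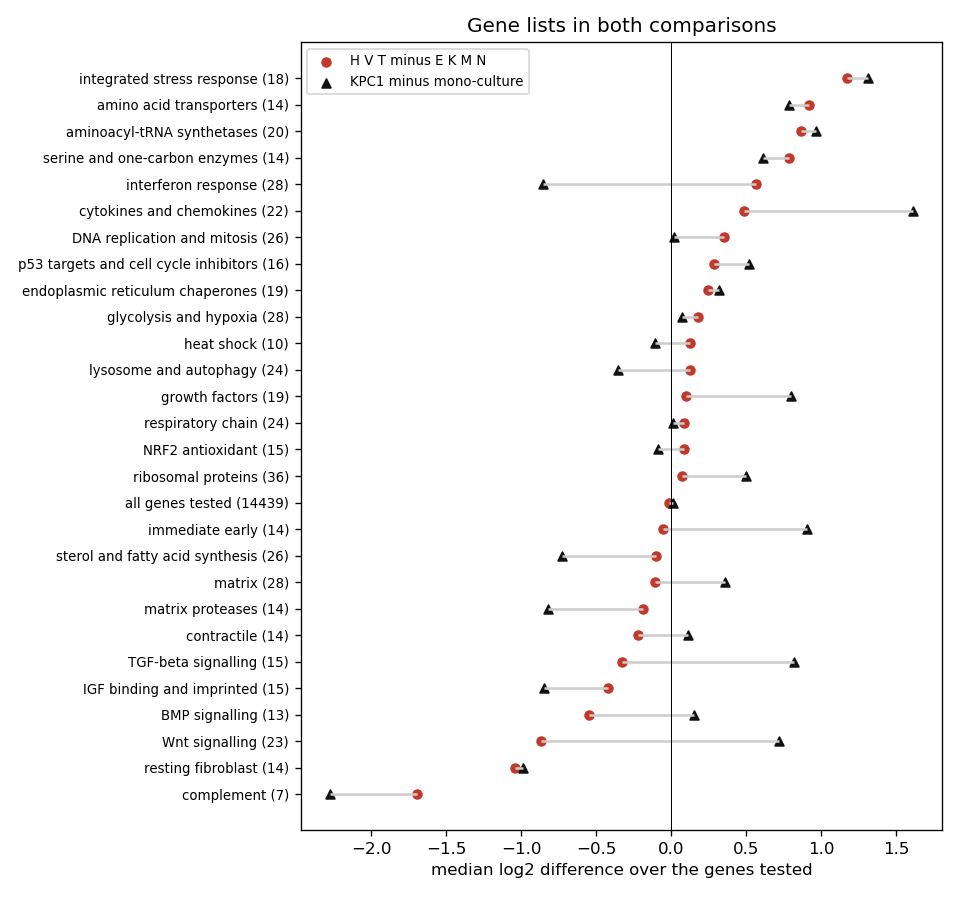
Median log2 difference of each gene list, for H, V and T minus E, K, M and N (red circles) and for KPC1 minus mono-culture (black triangles); the number of genes tested is in brackets. The stress response, transporter, tRNA synthetase, complement and resting fibroblast lists have medians of like sign and size in both, and the interferon (0.56 and -0.86) and Wnt (-0.87 and 0.72) lists have medians of opposite sign. The reference is E, K, M and N for the circles and mono-culture for the triangles, so opposite signs do not set KPC1 apart from H, V and T.

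Clone T stood apart within its side. Between clone T and the mean of H and V, 3102 genes (21.5%) passed the test, 1676 higher and 1426 lower with T. Without clone T replicate 1 the number was 1542, and with clone V left out altogether it was 1352. T lay on the side of E, K, M and N, relative to H and V, in 29 of the 30 higher split genes and 79 of the 82 lower ones. Of these 11 were called lower and 32 called higher with T, and 0 were called in the other direction. Over all genes tested 9.88% were called lower and 11.6% higher with T. The clone T libraries took part in the choice of the split genes. On the scale used above T stood at 79.7% and 76.4%, H at 103% and 105% and V at 118% and 117%. Gdf15 was at 84.7 CPM with T, 147 CPM with H and 168 CPM with V (T minus H and V -0.89 ± 0.24, edgeR adjusted p = 0.00804). Prelp was at 56.6 CPM with T, 22.8 CPM with H and 13.7 CPM with V (1.68 ± 0.32, edgeR adjusted p = 0.000399).

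In the interferon list 25 of 28 genes were called lower with T than with H and V, and 0 higher, against 9.88% of the genes tested called lower. Among genes named for the largest T differences, Il1rn, the interleukin 1 receptor antagonist, had 24.1, 32, 72.4 and 122 CPM with T and 0.599 to 1.68 CPM with H and V. It was at 0.152 to 0.550 CPM in mono-culture, and clones E and N had means of 26.3 and 25.4 CPM. Syt7, a synaptotagmin, had 10.3 to 21.4 CPM with T and 0.0509 to 1.55 CPM with H and V, and Gda, guanine deaminase, 0.546 to 5.48 CPM against 0 to 0.206 CPM. On the low side the imprinted RNA H19 had 0.618 to 6.70 CPM with T, 11 to 32.5 CPM with H and 66.4 to 181 CPM with V, and Edn1, the precursor of endothelin 1, 0.819 to 2.09 CPM with T against 3.29 to 14.0 CPM with H and V. Hsd11b1, which regenerates active glucocorticoid, had 0.281 to 1.38 CPM against 0.929 to 17 CPM, ranges that overlapped.

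Within H, V and T an F-test called 2745 genes (19%), of which 8 were among the 30 higher and 27 among the 82 lower split genes. Without clone T it called 52, without clone V 1352, without clone T replicate 1 1484 and without clone V replicate 1 1765. Within E, K, M and N it called 3958 (27.4%), among them 15 of the 30 higher and 42 of the 82 lower split genes. Without clone N this number was 2205 and without clone K 2504.

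Transcripts of epithelial genes were present in all co-cultures. The 22 epithelial genes listed summed to 5.25 to 8.04 CPM in mono-culture, 42.1 to 897 CPM with H, V and T, 24.8 to 724 CPM with E, K, M and N and 208 to 644 CPM with KPC1. Of 14 tested 11 were lower and 3 higher with H, V and T (median -0.37), and the sums of the sides overlapped. Clone T had the highest mean sum of its side, 564 CPM against 184 CPM for H and 119 CPM for V, and its replicate 1 had the highest of all, 897 CPM. Krt8, a keratin, had 6.35 to 227 CPM with H, V and T, 7.80 to 212 CPM with E, K, M and N, 32.6 to 123 CPM with KPC1 and 0 to 0.0914 CPM in mono-culture. Of the 14 epithelial genes 10 were called higher with T than with H and V (11.6% of the genes tested were), and their part in the other differences of clone T was not tested. The EGF-family ligand Areg had 3.27 to 23.4 CPM with H, V and T, 0.124 to 27.9 CPM with E, K, M and N and 0.0550 to 0.275 CPM in mono-culture, so the sides overlapped. The epithelial cadherin Cdh1 had 2.58 to 27.8 CPM with H, V and T and 0 to 35.3 CPM with E, K, M and N, and the sign of its difference depended on the scale used.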

How the data were processed

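Fibroblast RNA from 36 libraries in 9 groups of 4 was selected for polyA, prepared with a stranded kit and sequenced as paired reads. The authors deposited whole-number counts of 39017 genes, and the submitters' notes name STAR, featureCounts, edgeR and mm10 (GRCm38); versions, annotation and the strand setting of counting were not given in the sources used here, so genes that overlap on opposite strands are uncertain. The RPKM values of 37746 genes were also deposited by the authors and were used only as an alternative.

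Low genes were removed with filterByExpr, leaving 14439, and TMM factors set the library scale. The quasi-likelihood test of edgeR 4.0.16 (R 4.3.3) with 1 coefficient per group gave all differences as contrasts of group means, with Benjamini-Hochberg adjusted p-values over all genes tested (threshold 0.05). KPC1 was compared with mono-culture, and T with the mean of H and V, and F-tests were run within each side. CPM on the log2 scale had a prior count of 1. Alternatives used DESeq2 1.42.0, limma 3.58.1 on log2 RPKM, other scaling and filters, and omission of libraries or clones. The fitting code was tested on simulated data.

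Genes were named at a mean of at least 2 CPM over the 28 clonal libraries: the 10 highest and 10 lowest split genes, the 5 per direction with the widest gap, the highest and lowest member of each list, and the 3 highest and 3 lowest genes called for T. A further part of the rule, split genes called in the opposite direction with KPC1, found none. List members within 0.2 of no difference were left out, and other genes were chosen after their values were seen. The members and lists were chosen with earlier results of these data known. Counts limit precision most in genes of few CPM. The main fit did not use the replicate numbers to pair libraries. Same-numbered clonal pairs nevertheless correlated more than others, with a median of 0.15 against -0.06, and 46 of 84 were above 0.1. Between KPC1 and mono-culture the medians were -0.05 and 0.02. Results with a replicate block, which allows for shared numbers, are given in the last section.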

Additional observations from a re-analysis of the deposited data

Results flagged for a closer look

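Among 99 sets of 4 libraries, Dixon's criterion for an extreme value picked out 5, where chance flags about 1 in 20, or 4.95. Asns in clone E had its highest library at 293.5 CPM, with the next at 176.1 CPM. Gdpd2 in clone H had its lowest library at 0.258 CPM, with the next at 1.004 CPM. Gas1 was flagged in clone M, where the lowest library had 173.8 CPM and the next 274.9 CPM, and in clone N, where the highest had 294.1 CPM and the next 228.9 CPM. The TMM factor of 1 clone H library was 1.043, with the next at 0.963. Each of these extreme Asns, Gdpd2 and Gas1 libraries stayed on its own side of the division, which the choice of split genes fixes.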

How the results depend on the processing

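Between KPC1 and mono-culture the number of genes called stayed within 1.5 times of 8526 under every alternative run, from 7254 with at least 10 counts in every library to 9028 with a replicate block. Leaving out single libraries gave 7916 to 8698, and a fit of those 8 libraries alone gave 7977 with 30 higher and 76 lower split genes called.

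The number of split genes depended on their definition and on single clones. Higher and lower split genes numbered 19 and 43 by limma on log2(RPKM + 1), with 19 and 40 called with KPC1. Without clone T they were 175 and 345 (159 and 268 called), without clone E 57 and 159 (55 and 130) and without clone N 90 and 205 (90 and 195). With no minimum difference they were 162 and 169 (157 and 157), and with overlap allowed 356 and 1078 (283 and 725). Leaving out single libraries gave 25 to 62 higher and 75 to 131 lower ones, of which 25 to 62 and 69 to 125 were called. Among the libraries left out, clone T replicates 1 and 4 (62 and 54 higher) and clone N replicate 4 (131 lower) moved a count by over 1.5 times. The cause was not tested.

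Across the division, which was chosen on these values, a model with the counts of each clone summed gave 4736 genes below the threshold, a number that is no test of the division. Without clone V, T against H and V and the test within H, V and T each called 1352, and within H, V and T without clone T 52 were called. Within E, K, M and N 2504 were called without clone K and 2205 without clone N. Leaving out single libraries gave 1542 to 3327 for T, 1484 to 3118 within H, V and T and 3065 to 4339 within E, K, M and N.

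Some single differences changed sign. Cdh1, at 1.90 between the sides, became -0.031 by limma on log2(RPKM + 1) and -0.54 with counts summed per clone. Aldoc became 0.18 without clone V and Zbp1 0.059 without clone T. The T difference of Penk became -0.068 without clone H. Without single libraries it ran from -0.11 to 0.35, that of Gas1 from -0.016 to 0.40 and the KPC1 difference of Cacna1g from -0.085 to 0.33. The cause was not tested.

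With the replicate block 9028 genes were called with KPC1, 3841 for T, 3760 within H, V and T and 5396 within E, K, M and N, and split genes numbered 27 and 82. The numbers were not shown to mark a shared batch, but 21 of 28 clonal libraries correlated best with their own number.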
